A study of Mus musculus with 6 samples.

Results

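Heads of mouse embryos that carry 1 tm1a copy of Prdm15 were compared with heads of wild-type embryos at embryonic day 8.5. The comparison uses 4 of the 6 libraries of the series, chosen by their genotype label and title: 2 from wild-type embryos (Prdm15 tm1a+/+) and 2 from heterozygous embryos (Prdm15 tm1a+/-). The other 2 libraries, from mutant heads (Prdm15 tm1a-/-), shared the estimate of spread and their values stand beside a few results. All embryos were of the C57BL/6 strain and no treatment, Cre or transgene is named. The tm1a design is a knockout-first allele, in which an inserted cassette interrupts the gene in every cell from conception. The extraction protocol speaks of 2 heads per genotype, and no litter, somite count or batch is given, so p-values measure only the spread between these libraries. The wild-type titles begin with numbers and the heterozygous titles with the letters R and T, whose meaning the labels do not give. The question is what differs in the head when 1 of the 2 Prdm15 copies carries this allele.

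Prdm15 encodes a zinc finger protein of the PRDM family, whose members act on chromatin and transcription. At this stage the neural folds of the head are being patterned, the heart tube lies just beneath them, the foregut runs between them, and the yolk sac surrounds the embryo. The visceral endoderm is the outer epithelium of the yolk sac. Before a liver exists it takes up maternal nutrients by endocytosis and secretes plasma proteins and lipoproteins, under transcription factors that the liver later uses, among them HNF4A, HNF1, GATA and FOXA proteins.

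Reads assigned to genes numbered 40439234 and 34656271 in wild-type libraries 1 and 2, and 31236970 and 29570459 in heterozygous libraries 1 and 2. A level of 3 reads corresponded to 0.0742 to 0.101 CPM (reads of a gene scaled to a common library size) in these 4 libraries. The count file attached to wild-type sample 2 carries the title of a mutant sample and differs from the RPKM column of its own title in whether 1646 genes are at 0, while the file that carries the title differs at 0 genes. The title therefore decided which file was used. With the attached files in place, 0 genes passed edgeR's quasi-likelihood test (48 had an unadjusted p under 0.05). Xist, the RNA of the inactive X chromosome, was at 1314 CPM in wild-type library 2 and under 1 CPM in the other 3, whose summed Y-linked genes stood at 157 to 166 CPM. Wild-type library 2 was thus female and the other 3 male, and both mutant libraries were female. Genes over 2-fold apart between 2 libraries of a genotype made up 3.39% of 13002 genes in wild type and 2.18% of 13118 in heterozygous libraries (mean of at least 1 CPM). The exact permutation test of 2 against 2 libraries cannot go below p = 0.333, so tests below are edgeR's quasi-likelihood F-test over all genes with Benjamini-Hochberg adjustment, called as passed at an adjusted p under 0.05. Values in brackets after CPM are log2 fold changes, heterozygous minus wild type, with their standard error (SE).

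Heterozygous heads differed from wild-type heads mostly by genes that were higher. Of 15187 genes tested, 916 rose (6.03% of the genes tested) and 81 fell (0.533%). The rises were also larger. Among the genes that rose, 614 did so by more than 2-fold, and the median log2 fold change was 1.55. Among the genes that fell, 11 did so by more than 2-fold, and the median was -0.43. The median of all genes tested was -0.01. Both wild-type libraries were under 1 CPM for 261 of the genes that rose and held 0 reads for 28 of them. A log2 fold change over 5 was fitted for 103 of them, and 84 remained past it with the genes at 0 reads set to the bound that 3 reads allow. In all 997 genes that passed, the heterozygous libraries lay on 1 side of both wild-type libraries, which was so upward for 28.7% and downward for 27.6% of all genes tested. On simulated counts for this comparison (14992 genes) the test recovered 52% of genes changed 2-fold and 84% of genes changed 4-fold. Of its 145 calls 9 were false. The simulated counts were independent, with rises and falls mixed and no effect of sex, tissue content or single libraries. These rates are therefore not those of the real comparison.

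The falls were smaller than the rises, and fewer of the named ones passed with 1 library left out. The 20 rises with the largest fold or smallest p passed with any 1 of the 4 libraries left out, while of the 25 falls chosen in the same way 9 passed without wild-type library 1, 4 without wild-type library 2, 1 without heterozygous library 1 and 12 without heterozygous library 2. Over all genes, 541 rose and 97 fell without wild-type library 1, and 621 and 13 without wild-type library 2. Without heterozygous library 1, 311 rose and 2 fell, and without heterozygous library 2, 581 and 167. Wild-type library 2 was the one female library of the 4, so embryo sex and that library cannot be told apart.

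**Figure D1:**
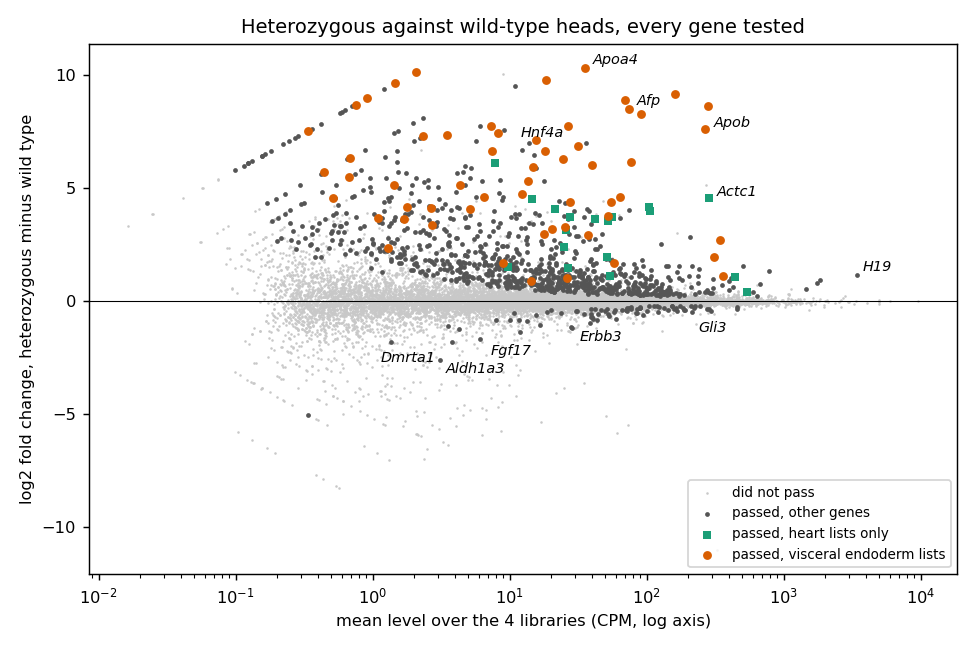
Log2 fold change (heterozygous minus wild type, vertical axis) against mean level over the 4 libraries (CPM, log axis) for 15187 genes; grey points did not pass the test, dark points passed, orange points passed and belong to a visceral endoderm list, green squares passed and belong to a heart list only. Genes that passed lie mostly above 0 (916 against 81), and of the 24 above 5 at a mean of at least 10 CPM 17 are orange. The fitted value of a gene with 0 wild-type reads is no bound.

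Genes of the visceral endoderm were among the largest rises. Of 24 rises over 5 on the log2 scale at a mean of at least 10 CPM, 17 were in 1 of the 4 lists of such genes. The lists cover transcription factors, plasma proteins, lipoprotein assembly, and uptake and transport. Over all 4, 57 of 83 different genes tested rose and 0 fell, beside 6.03% and 0.533% of all genes. The lists were chosen with earlier results of these data known, so these counts are a description and no independent test. Members at or near 0 reads in wild-type heads could only be called higher. The median log2 fold change of the 83 was 3.77. Without heterozygous library 1, 44 of 83 rose. The lists hold genes that foregut or other epithelia also express. In these bulk libraries, more cells of a type and more RNA of that kind per cell cannot be told apart.

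The promoters of 4 of these genes are shown because their genes rose together and because they hold short motifs that HNF1 or GATA proteins can bind. Each line gives the 250 bases before the RefSeq gene start, 5′ to 3′ on the gene's strand, with the motif in capitals (GTTAAT or its reverse complement ATTAAC, a short HNF1 motif, in Afp, Apoc2 and Fgb; AGATAA, the GATA core, in Hnf4a). The build is GRCm38.p6. Afp lies at chr5:90490464-90490713 on the plus strand, Apoc2 at chr7:19677942-19678191 on the minus strand, Fgb at chr3:83049864-83050113 on the minus strand and Hnf4a at chr2:163506607-163506856 on the plus strand.
Afp: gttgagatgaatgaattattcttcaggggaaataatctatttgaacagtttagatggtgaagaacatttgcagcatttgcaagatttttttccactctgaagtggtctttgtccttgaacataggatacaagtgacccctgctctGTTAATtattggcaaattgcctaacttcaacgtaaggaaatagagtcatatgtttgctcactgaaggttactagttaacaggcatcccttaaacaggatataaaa
Apoc2: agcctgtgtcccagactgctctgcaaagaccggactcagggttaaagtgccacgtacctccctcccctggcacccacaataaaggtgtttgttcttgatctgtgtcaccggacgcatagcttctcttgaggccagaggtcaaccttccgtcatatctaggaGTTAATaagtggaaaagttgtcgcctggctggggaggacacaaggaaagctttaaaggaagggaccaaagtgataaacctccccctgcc
Fgb: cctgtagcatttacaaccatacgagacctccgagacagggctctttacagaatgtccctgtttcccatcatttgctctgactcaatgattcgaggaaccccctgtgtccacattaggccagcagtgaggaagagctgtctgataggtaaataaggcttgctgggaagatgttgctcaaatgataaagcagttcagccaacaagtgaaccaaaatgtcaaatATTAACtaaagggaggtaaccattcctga
Hnf4a: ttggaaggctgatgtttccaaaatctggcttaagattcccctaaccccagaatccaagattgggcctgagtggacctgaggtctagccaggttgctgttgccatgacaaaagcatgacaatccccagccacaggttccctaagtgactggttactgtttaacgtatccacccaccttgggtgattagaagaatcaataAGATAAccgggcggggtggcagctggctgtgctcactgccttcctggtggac
The motif begins 105 bases before the start in Afp, 89 in Apoc2, 29 in Fgb and 52 in Hnf4a. Of the 57 genes that rose, 43 matched a RefSeq promoter of 300 bases (250 before and 50 after the start). The short HNF1 motif was present on either strand in 8 of the 43 (18.6%), namely F2, Fga, Fgb, Gc, Afp, Fabp1, Apoc2 and Serpina1b. It was present in 7.2% of all 27025 promoters and in 4.23% of the 11266 promoters of genes tested here. The GATA core was present in 7 of the 43 (16.3%), namely Spp2, Hnf4a, Slc7a9, Creb3l3, Serpinf2, Dab2 and Mbl2, against 11.4% of all promoters and 6.49% of those of genes tested. A longer HNF4 motif was found in 0 of the 43 and 0.477% of all promoters, and the full HNF1 palindrome, which contains the short one, in 0 and 0.0407%. A match of letters is a description of the sequence and no measurement of binding.

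The plasma protein list held some of the largest rises. It consists mostly of secreted proteins but also counts Amn and Ctsh, and Amn counts in the transport list too. Of 24 genes of the list tested, of 27 listed, 18 rose and 0 fell. The median log2 fold change was 6.08 (5.86 with 2 genes at 0 wild-type reads set to their bound). Summed over the list, the wild-type libraries held 10.3 and 45.5 CPM, the heterozygous libraries 892 and 662 CPM. Afp (chromosome 5, 90490737 to 90508907, plus strand, GRCm38), alpha-fetoprotein, the main plasma protein of the early embryo, was at 0.169 and 0.683 CPM in wild type against 155 and 140 CPM in heterozygous heads. Its log2 fold change was 8.49 (SE 0.36, adjusted p = 0.000597). Both heterozygous libraries were thus far above both wild-type ones, while the wild-type pair itself spanned 0.169 to 0.683 CPM.

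Ttr, transthyretin, the carrier of thyroid hormone and of retinol-binding protein, went from 0.363 and 0.853 to 212 and 150 CPM (8.25, SE 0.35). Rbp4, the retinol carrier itself, went from 1.45 and 2.93 to 181 and 123 CPM (6.14, SE 0.34). Fgb, a fibrinogen chain, went from 0.315 and 0.114 to 35.8 and 26.2 CPM (7.11, SE 0.34). In each of the 3 the first heterozygous library was the higher one. Amn, the membrane anchor of cubilin, rose by 6.30 (SE 0.34), and Ctsh, a lysosomal protease, by 6.01 (SE 0.31). F2, prothrombin, had 1 read in each wild-type library and 5.06 and 4.19 CPM in heterozygous heads, a ratio of 177 (95% counting interval 48.6 to 1470). Spp2, a secreted phosphoprotein gene (chromosome 1, 88406961 to 88426438, plus strand), had 0 reads in both wild-type libraries and 3.90 and 4.36 CPM in heterozygous ones, at least 105-fold higher against 3 reads over the group. Such bounds and intervals cover counting error only. Per length, in the RPKM of the authors' table, Ttr was the most abundant of the list in heterozygous heads (174 and 122 RPKM), followed by Rbp4 (146 and 98.7) and Afp (74.5 and 67.0).

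Lipoprotein genes rose in the same libraries. Of 18 genes of apolipoproteins and lipoprotein assembly tested, 16 rose and 0 fell, with a median log2 fold change of 6.13 (5.36 with 3 genes at 0 wild-type reads set to their bound). The sums were 128 and 144 CPM in wild type against 2269 and 1573 CPM in heterozygous heads. Apoa4 (chromosome 9, 46240696 to 46243459, plus strand), an apolipoprotein of lipid-absorbing epithelia, had the largest fitted rise of the named genes that have wild-type reads. It was at 0 and 0.114 CPM in wild type against 76.4 and 65.0 CPM in heterozygous heads (10.30, SE 0.40, adjusted p = 0.000597). Apoa1, the main protein of high-density lipoprotein, stood at 0.242 and 0.939 CPM against 396 and 251 CPM (9.15, SE 0.48). Apoc2, the activator of lipoprotein lipase, stood at 0.0242 and 0.597 CPM against 161 and 116 CPM (8.89, SE 0.49). For these apolipoproteins the wild-type pair differed by a larger factor than the heterozygous pair did, wild-type library 2 being the higher one. Apob, the structural protein of very-low-density lipoprotein, rose by 7.59 (SE 0.33) from 2.03 and 3.58 CPM to 620 and 451 CPM. Apom, a carrier of sphingolipid, rose by 6.85 (SE 0.34) and Soat2, which esterifies cholesterol, by 5.93 (SE 0.28). A1cf, a cofactor of Apob mRNA editing, had 0 reads in both wild-type libraries and was at least 75.0-fold higher.

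Apoe was the most abundant gene of that list per length, at 70.5 and 75.5 RPKM in wild-type and 587 and 365 RPKM in heterozygous heads. Unlike the other apolipoprotein genes named here it was well above 1 RPKM in wild-type heads. Apoa1 followed in heterozygous heads at 402 and 254 RPKM and Apoc2 at 222 and 160 RPKM, against under 1 RPKM in both wild-type libraries.

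Genes of uptake and transport, the absorptive side of the same epithelium, held 14 rises and 0 falls among 22 genes. Of all genes tested 6.03% rose and 0.533% fell. The median of the list was 1.8 on the log2 scale. The sums were 727 and 741 CPM in wild type against 2757 and 2118 CPM in heterozygous heads, and several members were already abundant in wild-type heads. Cubn (chromosome 2, 13276338 to 13491813, minus strand), cubilin, the endocytic receptor, went from 0.992 and 1.93 to 661 and 458 CPM (8.60, SE 0.36). The glucose transporter Slc2a2 had 3 reads over both wild-type libraries and was at 43.1 and 31.1 CPM in heterozygous heads, a ratio of 949 (95% counting interval 324 to 4600). Vil1, villin of the microvilli, went from 0.266 and 0.455 to 39.7 and 31.6 CPM (6.64, SE 0.32). Slc39a5, a zinc transporter, rose by 5.30 (SE 0.30). Folr1, a folate receptor, was at 0.871 and 0.882 CPM against 25.6 and 21.6 CPM (4.75, SE 0.14), with close values within each genotype. By contrast, the monocarboxylate transporter Slc16a1 and the adaptor Dab2, which also passed as higher, were at 50.5 and 53.1 RPKM and at 29.7 and 27.7 RPKM in wild-type heads. In heterozygous heads they were at 130 and 94.7 RPKM and at 120 and 98.4 RPKM.

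**Figure D2:**
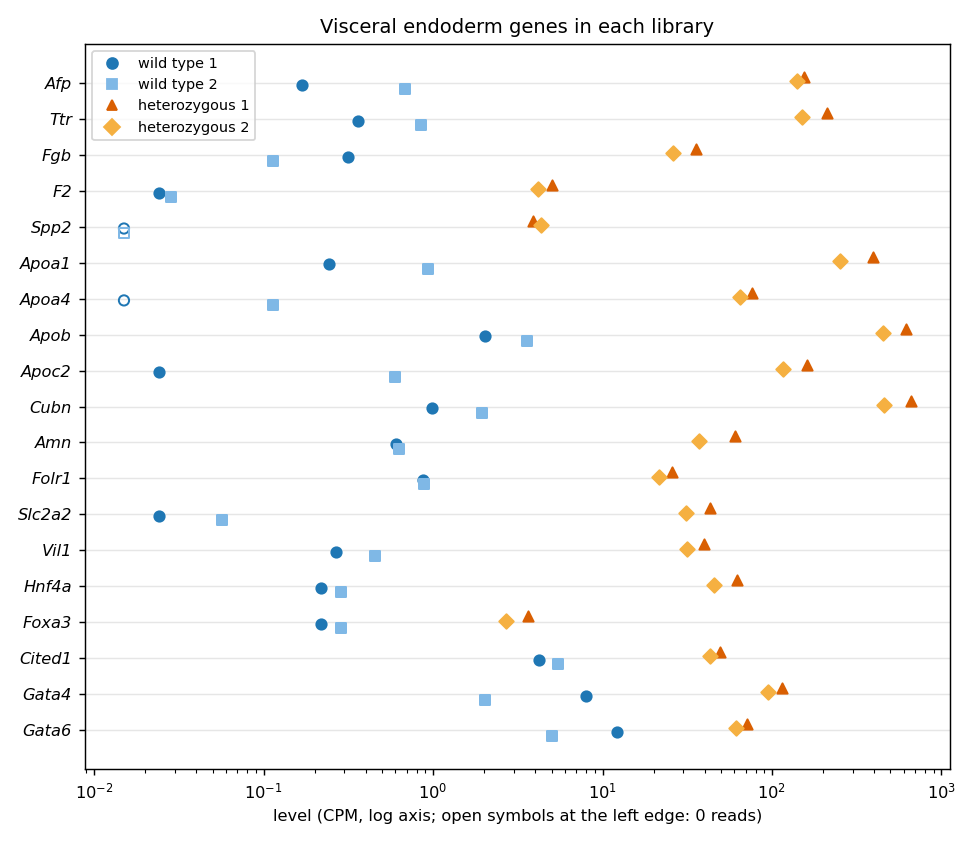
Level (CPM, log axis) of 19 visceral endoderm genes in the 2 wild-type (blue) and 2 heterozygous (orange) libraries; open symbols mark 0 reads. Both heterozygous libraries are above both wild-type libraries for each gene drawn, from Spp2 (0 reads against 3.90 and 4.36 CPM) to Gata6 (12.2 and 5.06 against 71.1 and 61.5 CPM).

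Among 20 transcription factors of the visceral endoderm 10 rose and 0 fell, with a median log2 fold change of 1.16. Hnf4a (chromosome 2, 163506808 to 163572910, plus strand), a nuclear receptor known to drive many of the genes above, went from 0.218 and 0.284 to 61.8 and 45.3 CPM (7.73, SE 0.29, adjusted p = 0.000597). Foxa3, a forkhead factor of endoderm, went from 0.218 and 0.284 to 3.64 and 2.68 CPM (3.64, SE 0.29). Cited1, a transcriptional coactivator, went from 4.21 and 5.49 to 49.3 and 43.2 CPM (3.26, SE 0.15). These 3 passed with any library left out. Gata4 and Gata6 are zinc finger factors of both endoderm and heart. Gata4 (chromosome 14, 63198922 to 63271692, minus strand) was at 7.94 and 2.02 CPM against 115 and 94.8 CPM (4.37, SE 0.55, adjusted p = 0.0119), and Gata6 at 12.2 and 5.06 CPM against 71.1 and 61.5 CPM (2.93, SE 0.38). Without heterozygous library 1 the edgeR adjusted p of Gata4 was 0.0699 and that of Gata6 0.0777. Without heterozygous library 1, 4 of the 20 factors passed.

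Outside the visceral endoderm lists, the naming rule gave these rises. Lgals2, a galectin, stood at 0 and 0.114 CPM against 12.3 and 12.0 CPM (7.75, SE 0.51). B4galnt2, a glycosyltransferase gene, was at 0.218 and 0.256 CPM against 26.4 and 22.2 CPM (6.67, SE 0.21). Cldn2, a tight junction protein of leaky epithelia, was at 0.847 and 0.939 CPM against 40.1 and 29.9 CPM (5.29, SE 0.21), and Npl, of sialic acid breakdown, at 3.58 and 3.41 CPM against 49.6 and 43.8 CPM (3.74, SE 0.16). Of low level, Lrrc19 had a ratio of 355 (95% counting interval 63.3 to 14100) and Cideb, a lipid droplet gene, 301 (53.6 to 12000), each from 1 wild-type read. Ugt2b34, a glucuronosyltransferase of a family of close paralogs, had 0 wild-type reads and was at least 61.6-fold higher.

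Heart genes were the next group. Of 18 heart transcription factors 11 rose and 0 fell (median log2 fold change 1.73). Of 20 genes of the cardiac sarcomere and contraction 9 rose and 0 fell (median 3.76). In 19 of these 20 both heterozygous libraries were above both wild-type ones, beside 28.7% of all genes tested. Of all genes tested 6.03% rose and 0.533% fell. Sums were 349 and 352 CPM in wild type against 1055 and 946 CPM in heterozygous heads for the factors, and 1005 and 829 against 2915 and 4279 CPM for the sarcomere. Gata4, Gata6 and Hand1 count in several lists. Tbx3, a T-box factor, went from 14.95 and 13.3 to 46.1 and 31.6 CPM (1.46, SE 0.19, adjusted p = 0.0130). Gata5 went from 9.70 and 2.76 to 94.1 and 61.8 CPM (3.63, SE 0.57, adjusted p = 0.0234). Nkx2-5, the homeobox factor of the cardiac lineage, went from 11.1 and 5.06 to 45.2 and 38.5 CPM (2.37, SE 0.40, adjusted p = 0.0281).

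The standard errors of Actc1, Tnnt2 and Ryr2 were larger than those of the visceral endoderm genes above. Actc1 (chromosome 2, 114047282 to 114053548, minus strand), cardiac actin, was at 38.7 and 7.54 CPM in wild type against 367 and 725 CPM in heterozygous heads (4.55, SE 0.85, adjusted p = 0.0363). Tnnt2, cardiac troponin T, was at 19.1 and 2.47 CPM against 163 and 228 CPM (4.16, SE 0.79, adjusted p = 0.0388). Myh6, a cardiac myosin, did not pass, with 28.4 and 1.51 CPM against 407 and 652 CPM. In all 3 wild-type library 1 was above wild-type library 2, and heterozygous library 2 above heterozygous library 1, the reverse of the order in Afp, Ttr and Rbp4. Tnnc1, slow troponin C, was at 5.57 and 2.11 CPM against 43.6 and 58.5 CPM (3.72, SE 0.50), and the ryanodine receptor Ryr2 at 4.07 and 0.711 CPM against 34.5 and 46.9 CPM (4.06, SE 0.75). Tpm1, a tropomyosin of many tissues, and Atp2a2, a calcium pump, had small changes on a high base (1.05, SE 0.13, and 0.41, SE 0.07). The number of heart calls depended on the test and on both heterozygous libraries. Of the 38 genes of both lists 20 passed, 3 without heterozygous library 1, 5 without heterozygous library 2 and 14 with 4 libraries fitted alone. By DESeq2, 34 passed (19 of 20 sarcomere genes and 15 of 18 factors).

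**Figure D3:**
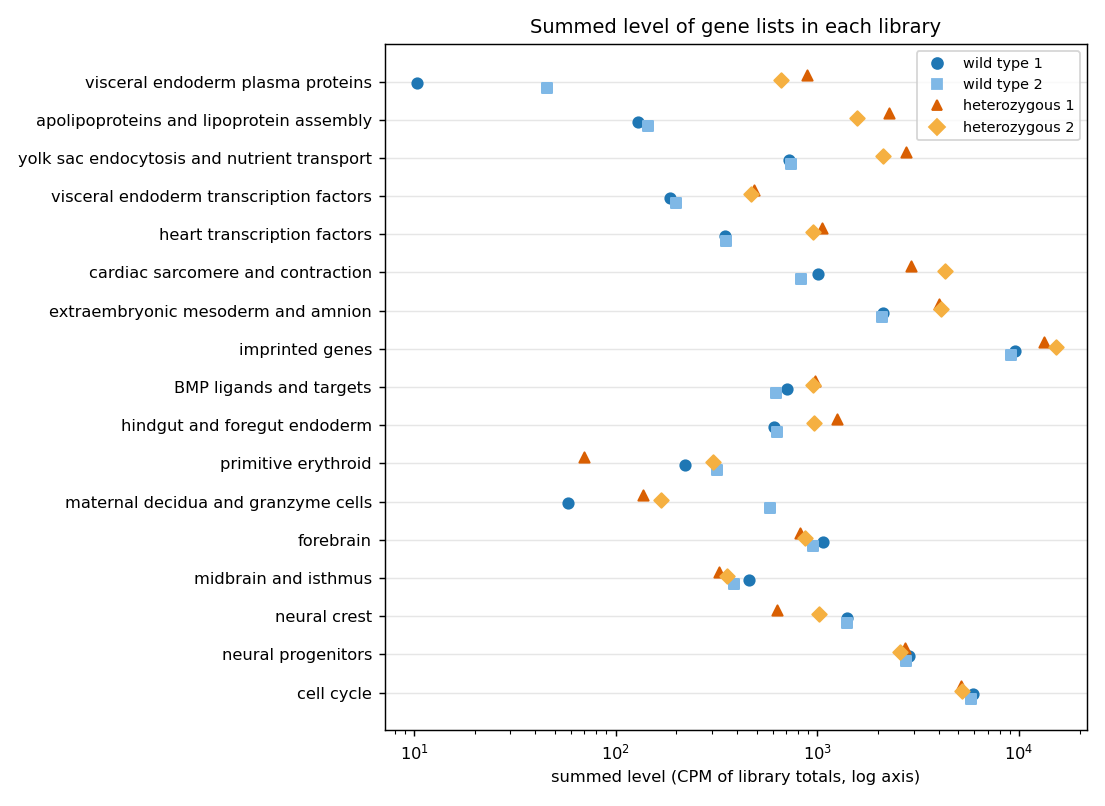
Summed level of 17 gene lists (CPM of library totals, log axis) in the 2 wild-type (blue) and 2 heterozygous (orange) libraries. Plasma protein, lipoprotein, transport, heart, extraembryonic mesoderm and imprinted lists are higher in both heterozygous libraries; the erythroid sum is low in heterozygous library 1 only (69.3 CPM), and the decidua sum is high in wild-type library 2 only (583 CPM).

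Extraembryonic mesoderm and amnion, the inner layers of the fetal membranes, contributed 6 of 19 genes that rose and 0 that fell. Of all genes tested 6.03% rose and 0.533% fell. The list had a median log2 fold change of 0.89 and sums of 2122 and 2096 against 3988 and 4111 CPM. Foxf1, a forkhead factor of lateral and extraembryonic mesoderm, went from 3.61 and 1.48 to 28.3 and 25.6 CPM (3.39, SE 0.35, adjusted p = 0.00672). Hand1, a factor of heart, trophoblast and extraembryonic mesoderm, went from 17.8 and 24.4 to 90.2 and 73.1 CPM (1.96, SE 0.29). Podxl, a sialomucin of epithelia and vessels, was at 482 and 423 CPM against 1336 and 906 CPM (1.31, SE 0.19). Without wild-type library 1 or without heterozygous library 1, 2 of the 19 rose, and without heterozygous library 2, 3 did.

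Imprinted genes are read from 1 parental copy and include many growth regulators of placenta and embryo. Of 17 genes of this list 10 rose and 0 fell, beside 6.03% and 0.533% of all genes tested. The median was 0.86 on the log2 scale. Peg12, an imprinted gene outside the list, fell (-0.85). The list summed to 9533 and 9140 CPM in wild type against 13270 and 15160 CPM in heterozygous heads. H19 (chromosome 7, 142575529 to 142578143, minus strand), a noncoding RNA abundant in endoderm and mesoderm, stood at 2121 and 2165 CPM against 4506 and 4907 CPM (1.14, SE 0.12, adjusted p = 0.00785). Phlda2, a restrainer of placental growth, went from 7.89 and 5.63 to 45.6 and 34.0 CPM (2.55, SE 0.24), and Cdkn1c, a cyclin-dependent kinase inhibitor, from 91.9 and 85.9 to 243 and 268 CPM (1.52, SE 0.18). Igf2, a fetal growth factor, was at 1310 and 1252 CPM against 2219 and 2652 CPM (0.93, SE 0.17, adjusted p = 0.0349). Igf2r, the receptor that clears it, was at 276 and 271 CPM against 540 and 561 CPM (1.01, SE 0.15), and Rian, a noncoding RNA, at 0.73 (SE 0.12) on the log2 scale. Without wild-type library 2, 5 of the 17 rose, as they did without heterozygous library 2, and 4 without heterozygous library 1.

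Of 21 BMP ligands and targets 10 rose and 0 fell (median 0.65), beside 6.03% and 0.533% of all genes tested. The ligand gene Bmp4 went from 14.2 and 9.39 to 31.0 and 27.4 CPM (1.30, SE 0.21), and Bmp6 from 2.35 and 1.37 to 6.96 and 8.14 CPM (2.02, SE 0.28). Smad6, an inhibitory Smad and feedback target, went from 13.6 and 12.5 to 41.2 and 35.4 CPM (1.56, SE 0.18, adjusted p = 0.00849). The list shares Gata4, Hand1, Tbx2 and Tbx3 with the heart list. Without heterozygous library 1, 1 of the 21 rose, without heterozygous library 2, 4 did, and without wild-type library 1, 6 did.

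In the hedgehog list of 16 genes 2 rose and 1 fell, beside 6.03% and 0.533% of all genes tested. Ihh, the ligand made by visceral endoderm, went from 0.0968 and 0.256 to 12.0 and 8.58 CPM (5.88, SE 0.38, adjusted p = 0.00161), while Shh, the ligand of notochord and floor plate, was at 15.4 and 17.7 CPM against 9.92 and 15.8 CPM and did not pass (adjusted p = 0.377). The receptor genes Ptch1 and Smo and the target Gli1 did not pass. Gli3 (chromosome 13, 15463235 to 15730026, plus strand), which acts mainly as a repressor in this pathway, fell, from 255 and 251 in wild type to 184 and 176 CPM in heterozygous heads (-0.49, SE 0.06, adjusted p = 0.0115). Without heterozygous library 1 or without wild-type library 1, 0 hedgehog genes fell.

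In the FGF list of 21 genes 1 rose and 2 fell, beside 6.03% and 0.533% of all genes tested. By DESeq2, 2 rose and 5 fell, and with either wild-type library or heterozygous library 1 left out 0 fell. The receptor gene Fgfr3 went from 22.2 and 21.3 to 49.4 and 42.0 CPM (1.07, SE 0.12). The ligand gene Fgf17 (chromosome 14, 70636203 to 70642268, minus strand), of the isthmus between midbrain and hindbrain, went from 10.1 and 8.48 to 1.93 and 3.89 CPM (-1.67, SE 0.35, adjusted p = 0.0493). Dusp6, a feedback phosphatase, went from 112 and 115 to 65.7 and 82.2 CPM (-0.62, SE 0.11, adjusted p = 0.0335). Fgf8, the best known ligand of the isthmus and the anterior neural ridge, was at 19.4 and 13.4 CPM against 19.4 and 19.7 CPM and did not pass. In the Wnt list of 32 genes 2 rose (6.25%, near the 6.03% of all genes tested) and 0 fell. The secreted inhibitor gene Sfrp5 went from 11.98 and 10.2 to 87.6 and 59.6 CPM (2.73, SE 0.22). The R-spondin gene Rspo3 went from 1.43 and 1.28 to 4.61 and 3.92 CPM (1.65, SE 0.26). Among 16 genes of retinoic acid, Dhrs3, a retinal reductase, rose with Rbp4 (1.64, SE 0.30), and Aldh1a3, a retinal dehydrogenase, fell. Of 18 planar polarity genes 1, Vangl1, rose (0.67, SE 0.10). The share that rose was 12.5% in the retinoic acid list and 5.56% in the planar polarity list, beside 6.03% of all genes tested. By DESeq2 the Wnt list had 6 rises and 3 falls, the retinoic acid list 3 and 1, and the planar polarity list 3 and 2. Rspo3 and Aldh1a3 passed with 0 of the 4 libraries left out in turn, and Vangl1 did not pass without wild-type library 2 or heterozygous library 1. Of 20 Notch genes 0 passed by edgeR's quasi-likelihood test or by DESeq2, and the median was -0.11. By edgeR's test 4 fell and 0 rose at an unadjusted p under 0.05. Of all 15187 genes tested 3598 were under that p, rises and falls together.

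Endoderm and caudal genes gave smaller counts, to be read beside the 6.03% of all genes tested that rose and the 0.533% that fell. In the hindgut and foregut list 7 of 19 rose and 0 fell (median 0.37), and 4 rose without heterozygous library 1. Spink3, a secreted protease inhibitor gene, went from 1.89 and 2.19 to 59.3 and 28.0 CPM (4.42, SE 0.40), and Cldn6, a claudin of embryonic epithelia, from 80.8 and 84.6 to 165 and 137 CPM (0.87, SE 0.09). The keratins Krt8 (1.11, SE 0.20) and Krt18 (1.02, SE 0.15) of simple epithelia rose too. Of 25 Hox genes Hoxb6 (0.387 and 0.484 CPM against 4.38 and 2.95 CPM, 3.07, SE 0.32) and Hoxd1 (2.34, SE 0.40) rose and 0 fell. The share that rose was 8%, beside 6.03% of all genes tested. DESeq2 called 5 Hox genes higher and 3 lower. Without wild-type library 1, 6 Hox genes rose and 2 fell, and with any other 1 library left out 1 rose. Of 16 trunk and tailbud genes 0 rose, and the 1 that fell was Fgf17. The caudal homeobox gene Cdx2 was at 0.411 and 0.114 CPM against 3.87 and 2.82 CPM and did not pass (adjusted p = 0.0580). T, the gene of notochord and primitive streak, was at 11.3 and 11.2 CPM against 12.6 and 12.3 CPM.

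Of 18 genes of the axial mesendoderm and head organizer 3 rose and 0 fell, beside 6.03% and 0.533% of all genes tested. They were Sfrp5, the homeobox gene Hhex of anterior endoderm (9.19 and 10.95 CPM against 19.3 and 17.8 CPM, 0.88, SE 0.12) and the LIM homeobox gene Lhx1 (0.774 and 0.142 CPM against 4.61 and 3.75 CPM, 3.14, SE 0.65, adjusted p = 0.0477). Of 15 epiblast and pluripotency genes Tfcp2l1 (3.69, SE 0.27) and L1td1 (2.84, SE 0.27) rose. Without heterozygous library 2, 7 of the 15 rose, and 6 of the 18 axial genes did; without heterozygous library 1, 1 axial gene rose. Pou5f1, the central gene of the epiblast list, did not (adjusted p = 0.112), with 3.73 and 3.02 CPM in wild-type heads, 35.3 CPM in heterozygous library 1 and 6.60 CPM in heterozygous library 2. Tek, a receptor of vessels, rose by 1.05 (SE 0.18) and Lyve1 by 5.06 (SE 0.75), while the endothelial genes Kdr, Cdh5 and Pecam1 did not pass, and 2 of 17 endothelial genes rose in all, 0 without wild-type library 1 and 1 without wild-type library 2 or heterozygous library 2. Pdgfra, a receptor of mesenchyme and also of primitive endoderm, was the 1 of 17 head mesenchyme genes that rose (81.7 and 90.0 CPM against 155 and 142 CPM, 0.79, SE 0.07, adjusted p = 0.00414). The share that rose was 5.88% in that list and 4.76% in the glycolysis list named next, beside 6.03% of all genes tested. Slc2a3, a glucose transporter, was the 1 of 21 glycolysis genes that rose (0.81, SE 0.15), and 0 rose with either wild-type library left out.

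Most genes that fell had small changes. Of the 81, the 25 named by the rule had log2 fold changes between -2.61 and -0.30. A larger fall lay under the minimum level of that rule and was picked out after its values were seen. It was Hpgds, a prostaglandin D synthase gene, whose wild-type levels were 0.411 and 0.910 CPM and whose heterozygous levels were 0 and 0.0335 CPM. Its 49 wild-type reads against 1 heterozygous read gave a ratio of 39.0 (95% counting interval 6.68 to 1572) and an adjusted p of 0.0494. Aldh1a3 (chromosome 7, 66390890 to 66427517, minus strand), which makes retinoic acid in the ventral eye and the nasal region, fell, from 5.01 and 5.63 in wild type to 0.966 and 0.771 CPM in heterozygous heads (-2.61, SE 0.47, adjusted p = 0.0342). Krt23, a keratin, fell, from 2.23 and 2.02 in wild type to 0.548 and 0.670 CPM in heterozygous heads (-1.8, SE 0.30), and Dmrta1, a DM-domain factor of the telencephalon, from 6.61 and 5.21 to 1.29 and 2.11 CPM (-1.8, SE 0.35, adjusted p = 0.0404). In these 3 genes both heterozygous values were under the lower wild-type value, as the rule requires. Fam212a fell, from 14.4 and 20.1 in wild type to 5.41 and 7.98 CPM in heterozygous heads (-1.37, SE 0.24). St8sia4, a polysialic acid synthase, fell, from 5.71 and 6.40 in wild type to 2.06 and 2.98 CPM in heterozygous heads (-1.26, SE 0.25). Tril, a Toll-like receptor interactor of neural tissue, fell, from 36.5 and 42.4 in wild type to 14.4 and 20.3 CPM in heterozygous heads (-1.18, SE 0.21), and Erbb3 (chromosome 10, 128567523 to 128589652, minus strand), the neuregulin receptor of the neural crest, from 34.0 and 44.1 to 13.8 and 20.9 CPM (-1.17, SE 0.22, adjusted p = 0.0379).

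The rule named further falls. Ctnna2, the neural alpha-catenin, was at 10.4 and 10.1 CPM against 5.70 and 5.80 CPM (-0.83, SE 0.13), and Ctnnd2, delta-catenin, at 23.4 and 21.8 CPM against 8.54 and 13.1 CPM (-1.07, SE 0.21). Jam2, a junctional adhesion molecule, was at -0.86 (SE 0.18), Akap6 at -1.10 (SE 0.23), Phactr1 at -0.89 (SE 0.16), Plcg2 at -0.98 (SE 0.20) and the imprinted gene Peg12 at -0.85 (SE 0.16). Among the smallest p were genes of high level with changes under 0.6 on the log2 scale. Greb1 went from 170 and 159 to 123 and 123 CPM (-0.42, SE 0.05, adjusted p = 0.00851). Eya1, a cofactor gene of the cranial placodes, went from 52.0 and 53.5 to 34.4 and 36.8 CPM (-0.57, SE 0.07). Lmo4, a LIM-only cofactor, was at -0.43 (SE 0.06), the glypican gene Gpc1 at -0.47 (SE 0.07) and Lin28b, which keeps progenitors immature, at -0.40 (SE 0.06). The rule admits only genes without overlap between the genotypes, so all 25 had none. Heterozygous library 1 was the lower of its pair in 12 of the 15 largest falls that the rule names.

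**Figure D4:**
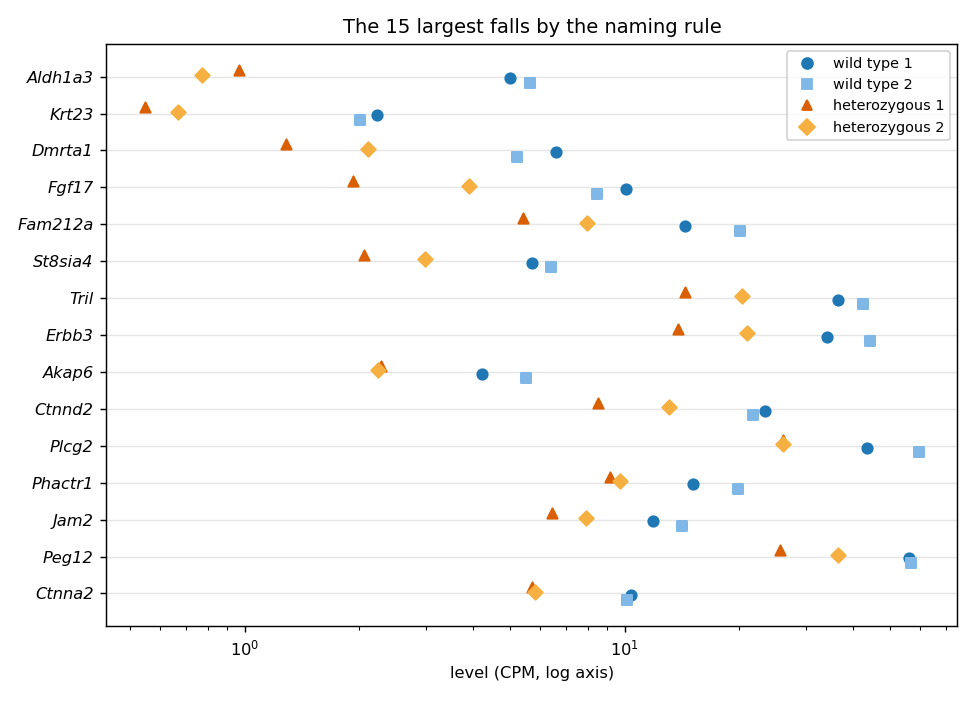
Level (CPM, log axis) of the 15 largest falls by the naming rule in the 2 wild-type (blue) and 2 heterozygous (orange) libraries. The heterozygous symbols lie left of the wild-type symbols in each row, as the naming rule requires. Gaps run from Aldh1a3 (5.01 and 5.63 against 0.966 and 0.771 CPM) to Ctnna2 (10.4 and 10.1 against 5.70 and 5.80 CPM).

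Brain region genes passed rarely. Of 23 forebrain genes 0 passed in either direction by edgeR's quasi-likelihood test, and 2 fell by DESeq2. By edgeR's test 4 fell and 0 rose at an unadjusted p under 0.05, as did 3598 of all 15187 genes in either direction. Without heterozygous library 2, 5 fell, and without heterozygous library 1, 0 did. The list had a median log2 fold change of -0.40 and both heterozygous libraries below both wild-type ones in 15 of 23, beside 27.6% of all genes. Otx2 (chromosome 14, 48657677 to 48673819, minus strand), the homeobox gene named in the series title, was at 109 and 86.1 CPM in wild type against 75.4 and 71.9 CPM in heterozygous heads (-0.40, SE 0.25, adjusted p = 0.375). Lhx2, a LIM homeobox factor of forebrain and eye, was at 43.5 and 32.2 CPM against 14.1 and 29.4 CPM (-0.80, SE 0.36). Nr2e1, a nuclear receptor of the forebrain, was at 1.94 and 2.19 CPM against 0.0966 and 0.469 CPM (-2.86, SE 0.76, adjusted p = 0.0932). Six6, an eye field gene, was at 6.12 and 4.04 CPM against 0.419 and 2.04 CPM (-2.05, SE 0.74). In Lhx2, Nr2e1 and Six6 heterozygous library 1 was the lowest of the 4 libraries. The early forebrain genes Six3 and Hesx1 were at 62.2 and 41.6 against 43.3 and 43.3 CPM, and at 10.04 and 9.90 against 17.0 and 8.98 CPM.

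Of 16 midbrain and isthmus genes 1, Fgf17, fell, 0 rose, and 9 lay below both wild-type libraries, beside 27.6% of all genes (median -0.38). By DESeq2, 4 fell. With either wild-type library or heterozygous library 1 left out 0 fell, and without heterozygous library 2, 2 fell. Pax5 was at 12.6 and 13.3 CPM against 4.06 and 7.17 CPM (-1.21, SE 0.38, adjusted p = 0.130), Pax8 at 36.8 and 30.9 CPM against 7.96 and 19.5 CPM (-1.30, SE 0.39, adjusted p = 0.119) and En2 at 23.8 and 17.4 CPM against 3.16 and 12.9 CPM (-1.36, SE 0.68). Of 18 hindbrain genes 1 rose and 0 fell (median 0.07), with 4 rises without wild-type library 1 and 0 without either heterozygous library. The share of hindbrain genes that rose was 5.56%, near the 6.03% of all genes tested. Of 20 neural progenitor genes 1 fell (Lin28b), beside 0.533% of all genes tested, with a median of -0.12. Sox2 was at 132 and 146 CPM against 128 and 103 CPM (adjusted p = 0.214) and Sox1 at 85.1 and 87.3 against 81.0 and 79.2 CPM (adjusted p = 0.359). Of 13 neurogenesis genes 1 fell, Sox11, from 321 and 325 to 236 and 264 CPM (-0.37, SE 0.08, adjusted p = 0.0482). It did not pass with any 1 of the 4 libraries left out. Lin28b did not either, although without heterozygous library 2, 4 other neural progenitor genes fell.

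Of 21 neural crest genes 1 fell (Erbb3) and 0 rose, beside 0.533% and 6.03% of all genes tested. Below both wild-type libraries lay 16 of the 21, beside 27.6% of all genes (median -0.54). The list summed to 1404 and 1399 CPM in wild-type heads, 631 CPM in heterozygous library 1 and 1017 CPM in heterozygous library 2. Sox10, the factor of migrating crest, was at 104 and 129 CPM in wild-type heads and at 4.35 and 48.8 CPM in the heterozygous libraries (-2.13, SE 0.93, adjusted p = 0.237). Tfap2b was at 47.7 and 50.8 CPM against 3.03 and 23.2 CPM (-1.91, SE 0.86, adjusted p = 0.248). Without heterozygous library 2, 8 of the 21 crest genes fell, and without heterozygous library 1, 0 did.

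The 2 heterozygous libraries differed in other ways that bear on these values. The primitive erythroid genes Hba-x and Hbb-bh1, embryonic globins with close paralogs, were at 1.74 and 2.13 CPM in heterozygous library 1 and at 124 and 90.6 CPM in library 2, the latter near the wild-type levels of 82.3 and 119 CPM and of 56.7 and 80.8 CPM. Lefty2, a Nodal antagonist gene, was at 34.5 CPM in library 1, 1.14 CPM in library 2 and 0 and 0.0284 CPM in wild-type heads. Wnt8a (29.1 and 4.79 CPM) followed the same order. Pou5f1, Lefty2 and Wnt8a were thus higher, and globin and crest genes lower, in heterozygous library 1. In mutant libraries 1 and 2, Pou5f1 was at 31.3 and 47.9, Lefty2 at 20.6 and 8.76 and Wnt8a at 19.9 and 44.6 CPM. In the same mutant libraries Hba-x was at 13.7 and 3.37, Hbb-bh1 at 13.2 and 5.35 and Sox10 at 1.65 and 1.09 CPM. What set the 2 heterozygous libraries apart was not tested. These genes were chosen after their values were seen.

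**Figure D5:**
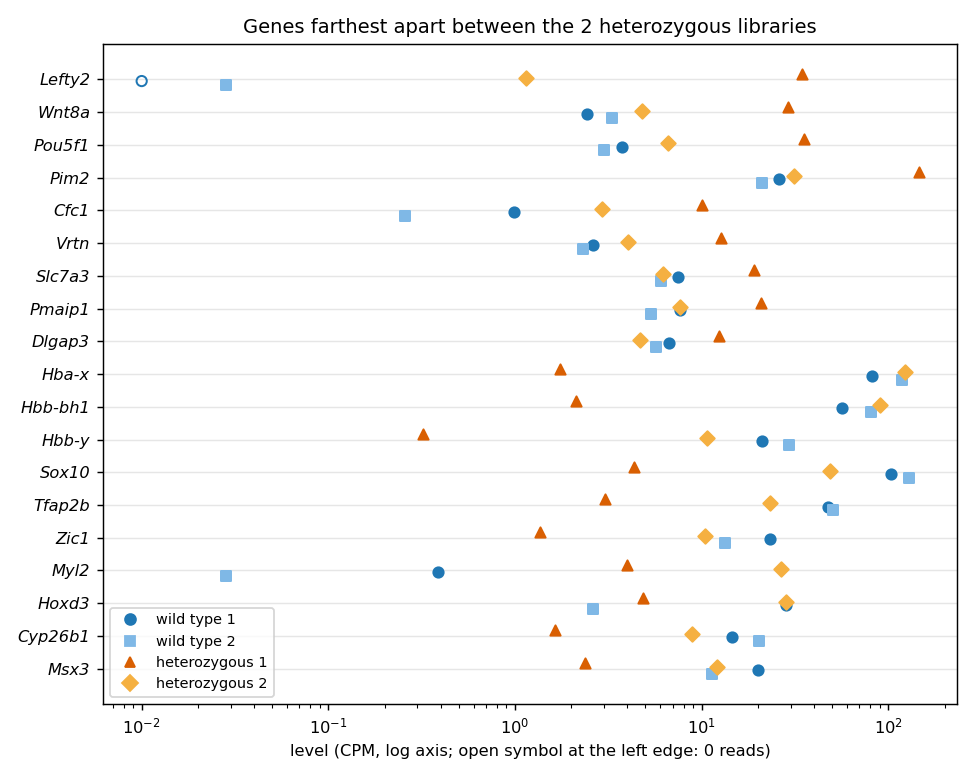
Level (CPM, log axis) of 19 of the 20 genes farthest apart between the 2 heterozygous libraries (10 chosen in each direction, mean of at least 5 CPM), with the wild-type libraries beside them; the open symbol marks 0 reads. Heterozygous library 2 lies nearer to the wild-type libraries than library 1 for the globins and Sox10 (4.35 against 48.8 CPM in the pair).

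Prdm15 itself (chromosome 16, 97791467 to 97851850, minus strand) was at 35.2 and 32.6 CPM in wild type against 28.3 and 31.8 CPM in heterozygous heads (-0.17, SE 0.12, adjusted p = 0.422). Counts over the whole gene do not separate normal transcripts from those of the interrupted allele, so they do not check the genotype labels. Of 14 PRDM genes tested 1 rose (7.14%, near the 6.03% of all genes tested). It was Prdm6, a gene of smooth muscle and endothelium, from 2.86 and 1.71 to 26.4 and 17.2 CPM (3.24, SE 0.37, adjusted p = 0.00852). Within 1 Mb of Prdm15, 7 genes besides it were tested, with log2 fold changes from -0.40 to 3.73, and 1 passed, Tmprss2, a membrane protease gene of epithelia (3.73, adjusted p = 0.001001). On chromosome 16, 25 of 432 genes tested passed, and on the X chromosome 46 of 532, beside 6.56% of all genes tested.

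Other lists held few or no calls. Of 18 cell cycle, 17 stress and dissection, 13 p53 target and 18 cholesterol synthesis genes 0 passed edgeR's quasi-likelihood test in either direction, with medians of -0.07, 0.04, 0.01 and -0.14. At an unadjusted p under 0.05 by that test the counts were 5, 1, 1 and 7, beside 3598 of all 15187 genes tested. By DESeq2 the counts that passed were 5, 1, 0 and 1. Of 13 primitive erythroid and 9 macrophage genes 0 passed by either tool, with 2 and 1 at an unadjusted p under 0.05. Trophoblast genes Phlda2 and Hand1 rose out of 10 tested (20%, beside 6.03% of all genes tested). The trophoblast genes Tpbpa and Gcm1 were at or near 0 in all 4 libraries. Of 16 genes of the maternal decidua 1 rose (6.25%, near the 6.03% of all genes tested). It was Bmp2, which other tissues also express (0.65, SE 0.13). The decidual sum was 583 CPM in wild-type library 2 against 57.9 CPM in wild-type library 1 and 137 and 167 CPM in the heterozygous libraries, with the prolactin family gene Prl8a2 at 281 CPM in wild-type library 2. Its part in the wild-type values was not tested, and leaving out wild-type library 2 gave 621 rises and 13 falls.

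Levels in mutant heads were set beside those of heterozygous heads. In mutant against heterozygous libraries, which share the heterozygous samples with the comparison above, 11 genes were higher (0.0724% of those tested) and 55 lower (0.362%). Both mutant libraries were female and both heterozygous libraries male, so genotype and embryo sex cannot be told apart in this contrast. For most of the named rises the mutant libraries stood higher without passing. Afp was at 484 and 365 CPM in mutant heads (1.53 above heterozygous on the log2 scale, adjusted p = 0.0603), Apoa4 at 184 and 147 CPM (1.23, adjusted p = 0.0676) and Hnf4a at 98.8 and 79.0 CPM (0.73, adjusted p = 0.112). Those of the lists that passed as higher were Folr1 (60.7 and 54.2 CPM, 1.28, adjusted p = 0.0175), F2 (1.49, adjusted p = 0.0491) and Spp2 (2.07, adjusted p = 0.04998). For heart genes 0 passed between mutant and heterozygous heads, with medians of 0.12 for the factors and -0.56 for the sarcomere list. Notch3 (177 and 192 CPM in wild type, 162 and 173 in heterozygous and 54.3 and 41.3 in mutant heads, -1.80, adjusted p = 0.0103) and Sox1 (51.2 and 55.9 CPM in mutant heads, -0.58, adjusted p = 0.0385) were lower in mutant than in heterozygous heads. Neither had passed between heterozygous and wild type. Gli1, the hedgehog target, had 56.1 and 63.4 CPM in wild type, 66.2 and 63.7 CPM in heterozygous heads and 10.1 and 17.4 CPM in mutant heads (-2.24, adjusted p = 0.0385).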

How the data were processed

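RNA of mouse heads was sequenced in 6 libraries, 2 per genotype. The authors deposited raw read counts per gene symbol and a table of RPKM values per library. They trimmed with Trim Galore 0.4.0 and cutadapt 1.8, aligned to mm10 with TopHat2 2.0.11 and counted with HTSeq 0.6.1p2, per the submitters' processing notes. Annotation and strand setting: not given in the sources used here. Overlapping, antisense and paralogous genes (globins, granzymes) are therefore uncertain. The authors' deposited log2 fold changes, likelihood ratio scores and p-values concern other contrasts and were not used.

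Counts were taken by title, HTSeq summary lines left out, filtered with filterByExpr by genotype and scaled by TMM. All 6 libraries entered 1 fit of edgeR 4.0.16 (R 4.3.3; 3 residual degrees of freedom), tested by quasi-likelihood with Benjamini-Hochberg adjustment at 0.05. Sharing the spread with mutant libraries assumes that they vary alike. The script was tested on simulated data. The members and the 41 gene lists were chosen with earlier results of these data known. Gene values are CPM on TMM-scaled library sizes, and list sums CPM of library totals. The text names Prdm15 and Otx2, the 15 largest changes and 10 smallest p per direction of called genes (mean level from 1 CPM upward, genotypes not overlapping), up to 6 members per list by p, and list core members. Predicted genes were left out, and a few genes that met the rule are not reported here. Other genes named were chosen after their values were seen. Positions are GENCODE M21 (GRCm38) and promoters RefSeq (GRCm38.p6). A gene with 0 reads in a group is compared at 3 reads over that group. Alternatives used DESeq2 1.42.0 and limma 3.58.1.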

Additional observations from a re-analysis of the deposited data

How the results depend on the processing

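Direction and calls depended most on which file is taken for wild-type library 2 and on single libraries. With the count files as attached, a file with the title of a mutant library stood in for wild-type library 2. That file differed from the RPKM column of wild-type library 2 in whether 1646 genes are at 0. The file used here differed from it at 0 genes. In the attached setting 0 genes passed, 0 higher and 0 lower. The log2 fold changes that then turned their sign were Afp -0.71, Ttr -0.34, Fgb -0.10, Ctsh -0.17, Amn -0.35, Apoa4 -0.38, Apoa1 -0.23, Apoc2 -0.63, Apob -0.18, Apom -0.21, Soat2 -0.23, Folr1 -0.38, Vil1 -0.36, Slc39a5 -0.22, Cited1 -0.052, Cldn2 -0.037, Npl -0.052, Lgals2 -0.73, Tbx3 -0.21, Hand1 -0.67, Foxf1 -0.42, Bmp4 -0.25, Igf2 -0.028, Phlda2 -0.44, H19 -0.059, Rian -0.089, Smad6 -0.091, Bmp6 -0.044, Ihh -0.20, Fgfr3 -0.21, Rspo3 -0.0088, Dhrs3 -0.19, Lhx1 -0.60, Tek -0.10, Tfcp2l1 -0.25, L1td1 -0.10, Krt8 -0.26, Krt18 -0.31, Hoxb6 -0.92, Hoxd1 -0.74, Prdm6 -0.41, Sox2 0.13, Sox1 0.23, Notch3 0.53. The summed levels that turned (heterozygous over wild type) were 0.825 for plasma proteins, 0.886 for apolipoproteins, 0.955 for hindgut and foregut, 0.989 for extraembryonic mesoderm, 0.978 for imprinted genes, 0.914 for BMP, 1.03 for forebrain and 1.01 for midbrain. The other 19 alternatives turned the sign of 0 of the 104 genes compared. DESeq2 called 1890 genes (1416 higher, 474 lower), the likelihood ratio test 1579 (272 lower) and edgeR's exact test 1508 (228 lower), and higher genes made up 74.9% of the calls with DESeq2 and 82.8% with the likelihood ratio test against 91.9%. A term for sex left 516 (507 higher, 9 lower). With 1 female among the 4 libraries it leaves wild-type library 1 as the lone wild-type library of the contrast, close to leaving out wild-type library 2 (634 calls, 13 lower), and so is no separate check. Scaling to the neural progenitor list, after which the median log2 fold change of all genes was 0.05 against -0.01, left 9 lower, fitting 4 libraries alone 34 lower, and upper quartile scaling gave 130 lower. Leaving out 1 library gave 313 to 748 calls, 311 to 621 higher and 2 to 167 lower; the lone library of that genotype is then assumed to vary like the others. No paired analysis was possible because the titles carry no replicate numbers shared between genotypes. At this depth, levels under 0.0742 to 0.101 CPM rest on fewer than 3 reads.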
